A study of Mus musculus with 6 samples.

Results

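The genes described here are 39 genes of ribosome production in the nucleolus, of RNA polymerase I and of polyamine and nucleotide supply, with a mitochondrial chaperonin, listed by name. The list was made with earlier results of these data known, so its shares set against all genes are a description and no independent test. Of these, 37 had a probe set that carries their symbol alone, out of 22180 such genes on the array, and each gene was read from its brightest probe set by the mean of 6 arrays. Fbl and Sms were not analysed here, because no probe set carries either symbol alone. All samples were KP1 cells, a line grown from small cell lung cancer of mice that lack Rb, p53 and p130, so both groups share those losses. In the N1ICD group (3 arrays) the cells were transfected with Notch1-ICD-ires-GFP, which makes the active, intracellular part of the Notch1 receptor together with GFP, and in the control group (3 arrays) with the empty ires-GFP vector. In both groups GFP-positive cells were sorted 48 hours after transfection, and total RNA was hybridised to Affymetrix Mouse Gene 2.0 ST arrays, 1 per sample. The labels call the samples biological replicates without naming separate cultures, so p-values measure the spread between these samples in a single cell line.

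The nucleolus is the site where RNA polymerase I transcribes the long precursor of the ribosomal RNAs and where that precursor is modified, cut and packed with ribosomal proteins into the small and the large ribosomal subunit. Small nucleolar ribonucleoproteins (snoRNPs) guide the chemical modification of the RNA, and the small subunit processome and a series of large subunit assembly factors carry out the cutting and folding. Cells that grow fast make many ribosomes, and MYC family transcription factors are known activators of these genes and of the polyamine enzyme Odc1. Small cell lung cancer is a fast-growing neuroendocrine tumor in which a MYC family gene is amplified in a subset of cases.

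Values are log2 expression after RMA, the deposited normalization. Array medians over all genes lay between 6.14 and 6.24, and all 37 genes lay above every array median on every array. Correlation across genes, which are not independent replicates, was 0.991 to 0.994 within groups and 0.980 to 0.984 between groups. Notch1 was higher in N1ICD (7.76 ± 0.29) than in control (6.17 ± 0.19; SD, n = 3 each), and the 5 Notch target genes Hes1, Hes5, Hey1, Heyl and Nrarp rose by 1.92 to 5.11 (limma adjusted p at most 2.28e-05). Neuroendocrine markers were expressed in both groups, with mean levels over 5 measured markers of 10.36 to 10.58 in N1ICD and 10.36 to 10.42 in control arrays (Insm1 fell by 0.89, Chga rose by 0.64 and Ncam1 by 0.53, the last 2 calls lost without control replicate 2 among others, adjusted p up to 0.0955). Of the macrophage markers, 5 of 6 (Ptprc, Adgre1, Csf1r, Lyz2 and Itgam) lay below every array median, as did 3 of 6 fibroblast markers (Col1a1, Col1a2 and Lum) and 2 of 5 endothelial markers (Cdh5 and Emcn). The endothelial receptor genes Kdr and Tek rose by 3.04 and 1.06, and the mean over the 5 endothelial markers was 6.53 to 6.73 in N1ICD against 5.67 to 5.85 in control arrays. Pdgfrb rose by 0.89. Lyz2 rose by 0.52, a call lost whichever array was left out (adjusted p up to 0.11), and Pdgfra fell by 0.74, a call lost without N1ICD replicates 1 or 2 or control replicates 2 or 3 (adjusted p up to 0.0736). Whether other cell types have a part in the results below was not tested.

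The listed genes were lower in N1ICD cells. Of the 37, 18 fell and 0 rose by limma with Benjamini-Hochberg adjustment over all genes (adjusted p under 0.05), against 3.27% of all genes that fell and 3.82% that rose. At an unadjusted p under 0.05, 32 were lower and 0 higher, against 11.2% of all genes lower and 8.67% higher. The mean was lower in N1ICD for 37 of 37 genes, against 54.5% of all genes, and for 36 of 37 all N1ICD arrays lay below all control arrays, against 15.0% of all genes. The median change was -0.39 on the log2 scale, a level of 76.5% of control, while the median over all genes was -0.02. In a bulk measurement scaled to a common distribution, less of these RNAs per cell and fewer cells that hold them cannot be told apart. The changes were small: the 18 falls lay between -0.61 and -0.39 (SE 0.09 to 0.14), or 1.31-fold to 1.53-fold, and 364 of the 726 genes that fell had a larger fall than any of them. The other 19 had changes of -0.42 to -0.10 with adjusted p of 0.0679 to 0.663. Among the 7389 genes at least as bright as Rrp9, the dimmest of the 37, 5.64% fell, 27.3% had all N1ICD arrays below all control arrays, 63.4% had a lower mean in N1ICD, and the median change was -0.07. With the genes below the median level left out, 28 of the 37 fell, against 11.6% of the genes tested, with those below the 25th percentile left out 23 against 6.33%, with an intensity trend and robust eBayes 27 against 5.53%, with equal array medians 14 against 2.97%, and at an adjusted p under 0.01 2 against 0.938%. When all 41345 probe sets, most of the added ones without a gene symbol, were fitted and adjusted together, a setting chosen after seeing the data, 4 of the 37 fell at their brightest probe set (Polr1a, Utp20, Bop1 and Rrp12), against 1.02% of the genes.

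**Figure D1:**
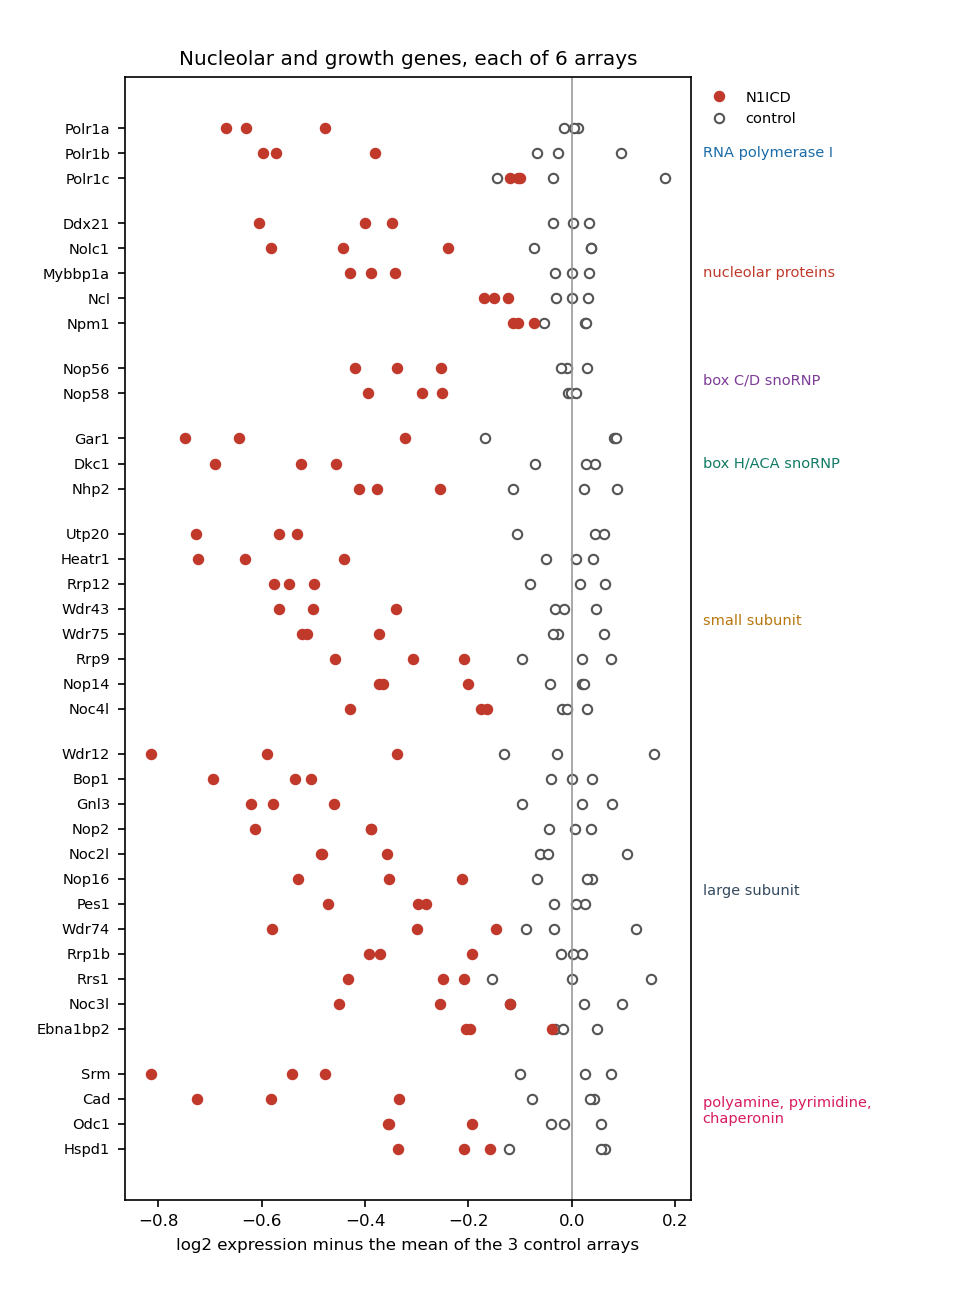
Each row is a gene and each point an array (filled: N1ICD, n = 3; open: control, n = 3), placed by its log2 expression minus the gene's mean over the control arrays; genes are grouped by role. In 36 of 37 rows all filled points lie left of all open points, and Polr1c is the row where they overlap.

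The arrays differed within the N1ICD group. Taken as the deviation from each gene's 6-array mean, the median over the 37 genes was -0.25, -0.23 and -0.10 in N1ICD replicates 1, 2 and 3, against 0.19, 0.20 and 0.19 in control replicates 1, 2 and 3. N1ICD replicate 3 was thus nearest to the controls, and it held the highest N1ICD value for 27 of the 37 genes. Without it, 14 of the genes fell and the median change was -0.44. Without N1ICD replicates 1 and 2, in turn, 10 and 4 fell, and without control replicates 1, 2 and 3 the counts were 8, 4 and 6. Over all genes the share that fell was 2.13%, 1.24% and 2.64% without N1ICD replicates 1, 2 and 3, and 1.92%, 1.53% and 1.39% without control replicates 1, 2 and 3. The median change of the 37 genes lay between -0.44 and -0.36 in these fits. Polr1a, Utp20 and Bop1 kept their call in all 6 of them.

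**Figure D2:**
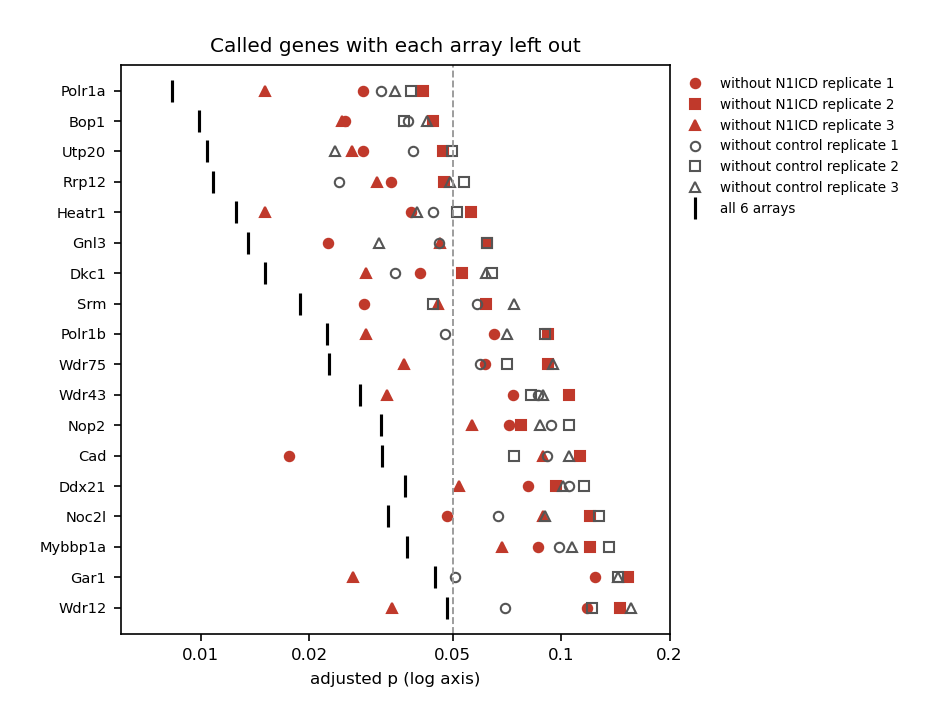
Adjusted p (log axis) of the 18 genes that fell, with all 6 arrays (bars) and with each array left out in turn (symbols); the dashed line marks 0.05. Polr1a, Bop1 and Utp20 stay left of the line in every fit, and Mybbp1a, Ddx21 and Nop2 lie right of it whichever array is left out.

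RNA polymerase I is the enzyme that reads the ribosomal RNA genes. Polr1a, its largest subunit, had 8.69, 8.65 and 8.84 in the N1ICD arrays, against 9.33, 9.32 and 9.30 in the control arrays. The groups did not overlap, and the lowest control array stood 0.46 above the highest N1ICD array. Polr1a fell 1.51-fold (log2 change -0.59 ± 0.09 SE, limma adjusted p = 0.00832). Polr1b, which forms the catalytic center with Polr1a, had 7.77, 7.80 and 7.99 in the N1ICD arrays, against 8.30, 8.46 and 8.34 in the control arrays. It fell by 0.52 ± 0.10 (adjusted p = 0.0224), a call lost without N1ICD replicates 1 or 2 or control replicates 2 or 3 (adjusted p up to 0.0917). Polr1c is a subunit that RNA polymerase I shares with RNA polymerase III. Its values were 9.28, 9.26 and 9.28 in the N1ICD arrays and 9.56, 9.24 and 9.35 in the control arrays, so that the groups overlapped (log2 change -0.11 ± 0.11, adjusted p = 0.663).

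Of the abundant nucleolar proteins and factors bound near the ribosomal genes, 2 of 5 fell. Ddx21, an RNA helicase of pre-rRNA processing, had 9.54, 9.75 and 9.80 in the N1ICD arrays, against 10.18, 10.15 and 10.11 in the control arrays (log2 change -0.45 ± 0.10, adjusted p = 0.0368). Mybbp1a, a nucleolar protein that binds MYB and takes part in pre-rRNA processing, had 10.06, 10.10 and 10.15 in the N1ICD arrays, against 10.49, 10.52 and 10.46 in the control arrays (-0.39 ± 0.09, adjusted p = 0.0373). Both calls were lost whichever array was left out, with adjusted p of 0.0522 to 0.116 for Ddx21 and 0.0686 to 0.136 for Mybbp1a. Nolc1, a phosphoprotein that binds snoRNPs, had a change of -0.42 ± 0.11 (adjusted p = 0.0679), and its adjusted p lay between 0.0462 and 0.211 with 1 array left out. Ncl, nucleolin, had 11.10, 11.06 and 11.08 in the N1ICD arrays and 11.26, 11.23 and 11.20 in the control arrays. Its change of -0.15 ± 0.09 did not pass the test (adjusted p = 0.407), although the groups did not overlap. Npm1, nucleophosmin, a histone and ribosomal protein chaperone, had a change of -0.10 ± 0.09 (adjusted p = 0.617), the smallest of the 37. Npm1 has pseudogenes in the mouse genome, and whether their transcripts reach its probe set was not tested.

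The snoRNP proteins fall into the box C/D class, which places methyl groups on the ribose of ribosomal RNA, and the box H/ACA class, which turns uridine into pseudouridine. Of the box H/ACA proteins 2 of 3 fell. Dkc1, dyskerin, the pseudouridine synthase itself, had 8.96, 9.13 and 9.19 in the N1ICD arrays, against 9.58, 9.69 and 9.68 in the control arrays. It fell 1.47-fold (-0.56 ± 0.10, adjusted p = 0.0151), and the call was lost without N1ICD replicate 2 or control replicates 2 or 3 (adjusted p up to 0.0643). Gar1, a partner of Dkc1, had 7.43, 7.53 and 7.86 in the N1ICD arrays, against 8.01, 8.26 and 8.26 in the control arrays. The gap between its groups was 0.16, and the fall of 0.57 ± 0.14 (adjusted p = 0.0447) was kept only without N1ICD replicate 3, the highest N1ICD array (adjusted p up to 0.153 in the other 5 fits). Nhp2, another protein of the same particle, had -0.35 ± 0.10 (adjusted p = 0.0861). Of the box C/D proteins none of the 2 measured fell: Nop56 had -0.34 ± 0.09 (adjusted p = 0.0731) and Nop58 -0.31 ± 0.09 (adjusted p = 0.0872). Both passed an unadjusted p of 0.05 in limma (0.0064 and 0.00847), and neither had overlapping groups. Whether the changes of the box C/D and box H/ACA genes differ was not tested. Dkc1 and both box C/D genes also carry snoRNAs in their introns, whose level was not analysed here.

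**Figure D3:**
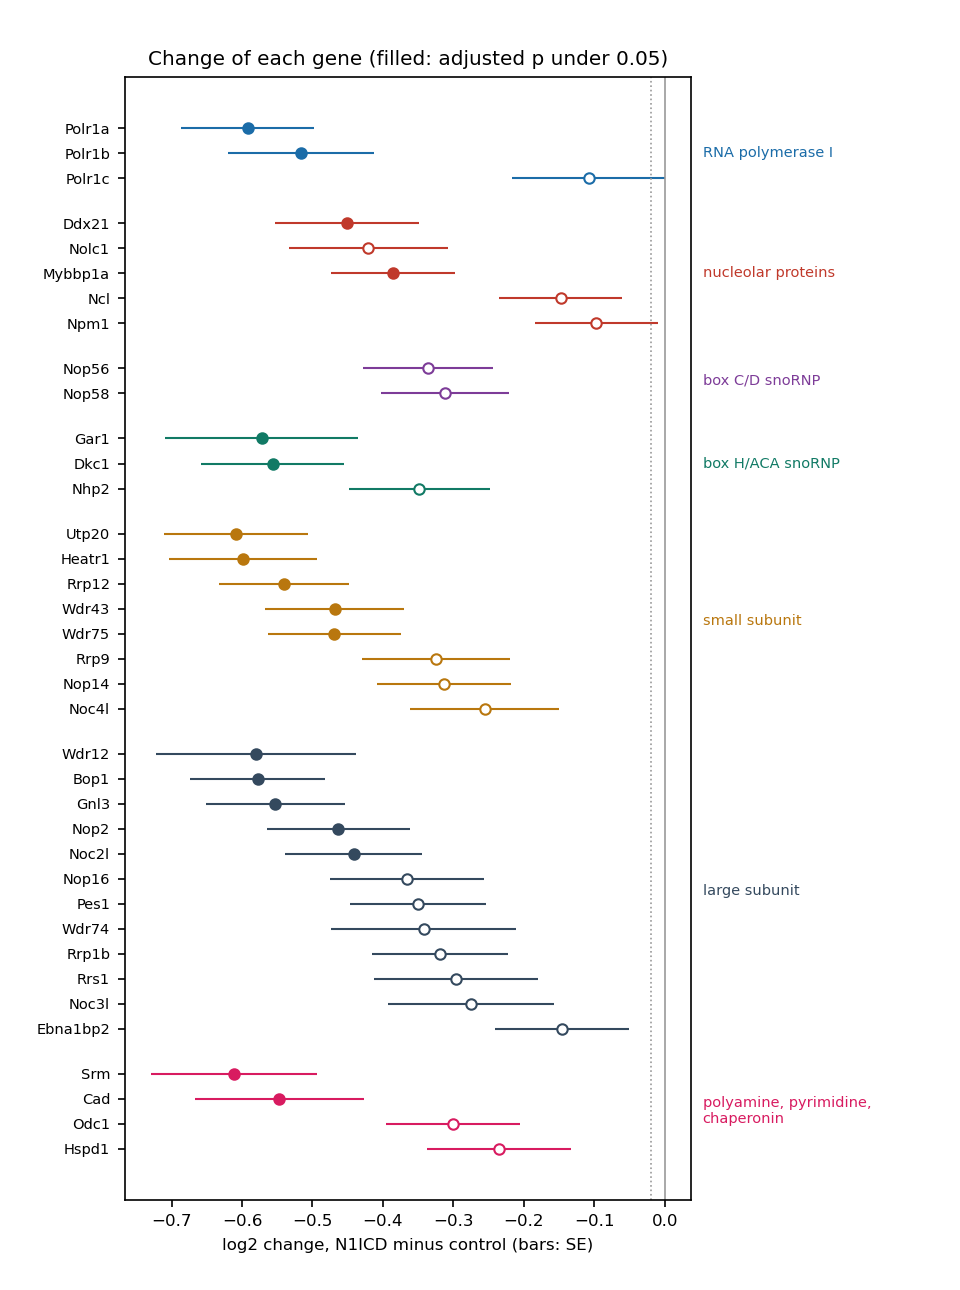
Log2 change of each gene, N1ICD minus control (3 arrays each), with its SE; filled points passed an adjusted p of 0.05, the solid line marks 0 and the dotted line the median of all genes. All 37 points lie left of 0, from -0.61 for Srm to -0.10 for Npm1.

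The small subunit processome is the large particle that assembles on the precursor of the small subunit RNA. Of 8 genes of the small subunit 5 fell, and the median change was -0.47. Utp20, a scaffold of the processome, had 8.30, 8.14 and 8.33 in the N1ICD arrays, against 8.91, 8.93 and 8.76 in the control arrays. It fell 1.52-fold (-0.61 ± 0.10, adjusted p = 0.0104; 0.0236 to 0.0497 with 1 array left out). Heatr1, the counterpart of yeast Utp10 and also needed for RNA polymerase I transcription, had 8.22, 8.31 and 8.50 in the N1ICD arrays, against 8.99, 8.95 and 8.90 in the control arrays. Its fall of 0.60 ± 0.10 (adjusted p = 0.0125) was lost without N1ICD replicate 2 or control replicate 2 (adjusted p up to 0.0563). Rrp12, which acts late in small subunit maturation and export, had 8.05, 8.08 and 8.12 in the N1ICD arrays, against 8.54, 8.69 and 8.64 in the control arrays. Its N1ICD arrays lay close together (SD 0.04), and it fell by 0.54 ± 0.09 (adjusted p = 0.0108), a call lost without control replicate 2 (adjusted p = 0.0539).

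Wdr43 and Wdr75 belong to the processome module that binds the start of the pre-rRNA during its transcription. Wdr43 had 10.28, 10.34 and 10.51 in the N1ICD arrays, against 10.89, 10.81 and 10.83 in the control arrays (-0.47 ± 0.10, adjusted p = 0.0276). Wdr75 had 8.98, 8.99 and 9.13 in the N1ICD arrays, against 9.48, 9.47 and 9.57 in the control arrays (-0.47 ± 0.09, adjusted p = 0.0227). Neither had overlapping groups, and both calls were kept only without N1ICD replicate 3 (adjusted p up to 0.105 and 0.095 in the other 5 fits). Rrp9, a protein of the U3 snoRNP, had a change of -0.33 ± 0.11 (adjusted p = 0.123). The partners Nop14 and Noc4l had -0.31 ± 0.10 (adjusted p = 0.101) and -0.26 ± 0.11 (adjusted p = 0.224), with all N1ICD arrays below all control arrays in both.

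Of the 12 genes of large subunit assembly 5 fell, with a median change of -0.36 over all 12. Bop1, Pes1 and Wdr12 form the PeBoW complex, which is needed for the maturation of the large subunit RNA. Bop1 had 8.54, 8.38 and 8.57 in the N1ICD arrays, against 9.11, 9.03 and 9.07 in the control arrays, and fell 1.49-fold (-0.58 ± 0.10, adjusted p = 0.00988; 0.0247 to 0.0442 with 1 array left out). Wdr12 had 7.59, 7.81 and 8.06 in the N1ICD arrays, against 8.27, 8.37 and 8.56 in the control arrays. Its values spread more than those of Bop1 within each group (SD 0.24 in N1ICD and 0.15 in control), and its fall of 0.58 ± 0.14 (adjusted p = 0.0481) was kept only without N1ICD replicate 3 (adjusted p up to 0.156 in the other 5 fits). Pes1 had 9.66, 9.85 and 9.83 in the N1ICD arrays and 10.15, 10.10 and 10.14 in the control arrays. Its change was -0.35 ± 0.10 and did not pass the test (adjusted p = 0.0729). Differences between the changes of the 3 PeBoW genes were not tested.

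Gnl3, nucleostemin, a nucleolar GTPase abundant in stem and tumor cells, had 10.11, 9.95 and 9.99 in the N1ICD arrays, against 10.59, 10.65 and 10.47 in the control arrays. It fell by 0.55 ± 0.10 (adjusted p = 0.0135), a call lost without N1ICD replicate 2 or control replicate 2 (adjusted p up to 0.0623). Nop2, a methyltransferase of the large subunit RNA, had 9.74, 9.96 and 9.97 in the N1ICD arrays, against 10.39, 10.36 and 10.31 in the control arrays (-0.46 ± 0.10, adjusted p = 0.0317). The call of Nop2 was lost whichever array was left out (adjusted p 0.0567 to 0.105). Noc2l, of the Noc complexes that move pre-ribosomes through the nucleus in yeast, had 8.09, 7.96 and 7.96 in the N1ICD arrays, against 8.38, 8.55 and 8.40 in the control arrays (-0.44 ± 0.10, adjusted p = 0.033). It passed the test only without N1ICD replicate 1 when 1 array was left out (adjusted p = 0.0482, and up to 0.127 in the other 5 fits).

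The other large subunit assembly proteins did not pass the test. Nop16 had a change of -0.37 ± 0.11 (adjusted p = 0.0968), Wdr74 of -0.34 ± 0.13 (adjusted p = 0.19) and Rrp1b of -0.32 ± 0.10 (adjusted p = 0.099). Rrs1, which brings the ribonucleoprotein of the smallest large subunit RNA into the particle in yeast, had -0.30 ± 0.12 (adjusted p = 0.201). Noc3l had -0.28 ± 0.12 (adjusted p = 0.242), and its highest N1ICD and lowest control array were both 8.76. Ebna1bp2, named for binding a viral nuclear antigen, had 12.40, 12.41 and 12.57 in the N1ICD arrays and 12.65, 12.57 and 12.59 in the control arrays (-0.15 ± 0.10, adjusted p = 0.461). For Noc3l and Ebna1bp2 the groups thus touched, with gaps of 0.00 and 0.01.

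Polyamines bind RNA and are needed for growth, and Cad starts pyrimidine synthesis. Srm, spermidine synthase, had 10.35, 10.01 and 10.28 in the N1ICD arrays, against 10.85, 10.72 and 10.90 in the control arrays. Its fall of 1.53-fold (-0.61 ± 0.12, adjusted p = 0.0189) had the largest estimate of the 37, and the call was lost without N1ICD replicate 2 or control replicates 1 or 3 (adjusted p up to 0.074). Odc1, ornithine decarboxylase, the rate-limiting enzyme ahead of Srm, had 9.79, 9.95 and 9.79 in the N1ICD arrays and 10.13, 10.11 and 10.20 in the control arrays. The groups did not overlap, and the change of -0.30 ± 0.10 did not pass the test (adjusted p = 0.116). Cad had 8.72, 8.33 and 8.48 in the N1ICD arrays, against 9.10, 8.98 and 9.09 in the control arrays (-0.55 ± 0.12, adjusted p = 0.0319). Here N1ICD replicate 1, not replicate 3, was the array nearest to the controls, and the call was kept only without it (adjusted p = 0.0176, and up to 0.113 in the other 5 fits). Hspd1, the mitochondrial chaperonin, had -0.23 ± 0.10 (adjusted p = 0.252).

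In 4 of the genes further probe sets gave a second reading. All 5 of these dimmer probe sets had a lower mean in N1ICD, 4 of them without overlap, and none passed limma over all probe sets (4 were under an unadjusted p of 0.05), a fit in which 4 of the 37 brightest probe sets passed and that of Ddx21 did not (adjusted p = 0.117). The change was -0.60 ± 0.13 at the second probe set of Rrs1, -0.39 ± 0.14 for Ddx21, -0.34 ± 0.11 for Npm1, and -0.37 ± 0.14 and -0.19 ± 0.12 for Nop56. For Rrs1, for Npm1 and at 1 of the 2 for Nop56 the dimmer probe set thus gave a larger estimate than the brightest.

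A wider set of 113 ribosome biogenesis genes, listed by role with earlier results of these data known, held 108 with a probe set of their own. Of these 12 fell and 0 rose, which is 11.1% lower, against 3.27% of all genes. At an unadjusted p under 0.05, 56 were lower and 0 higher, against 11.2% and 8.67% of all genes. The mean was lower in N1ICD for 102 of 108, against 54.5% of all genes. All N1ICD arrays lay below all control arrays for 77, against 15.0%, and the median change was -0.27, against -0.02. Of the 108, 107 lay above every array median on every array. Among the 7389 genes at least as bright as Rrp9, a cut taken from the 37 genes, 5.64% fell and 63.4% had a lower mean in N1ICD. In 27.3% of those all N1ICD arrays lay below all control arrays, and their median change was -0.07. Without N1ICD replicates 1, 2 and 3, in turn, 3, 0 and 12 of the 108 fell, and without control replicates 1, 2 and 3 the counts were 4, 0 and 2. In the same order of fits, 2.13%, 1.24%, 2.64%, 1.92%, 1.53% and 1.39% of all genes fell. By role, 6 of 43 further small subunit genes fell (median -0.30), 5 of 44 large subunit genes (median -0.27) and 1 of 9 snoRNP genes (median -0.23). Of 12 further RNA polymerase I subunits and factors of its initiation or termination none fell by limma, against 3.27% of all genes. None was under an unadjusted p of 0.05, against 11.2% of all genes lower. With 12 genes, counts of 0 lie near these shares. The mean was lower in N1ICD for 11, and all N1ICD arrays lay below all control arrays for 4. The median was -0.09, with Cd3eap (Polr1g), a polymerase subunit, at -0.29 ± 0.13 (adjusted p = 0.268). These values are from the brightest probe sets. Taf1d had -0.09 there and -0.32 ± 0.11 at a dimmer probe set (unadjusted p = 0.0259, adjusted p = 0.279, limma over all probe sets). Of the RNA polymerase I genes measured, the catalytic subunits Polr1a and Polr1b fell, and Polr1c and these 12 further genes did not pass the test. Whether their changes differ was not tested.

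Rcl1, which takes part in cutting the small subunit precursor in yeast, fell by 0.57 ± 0.12 (adjusted p = 0.0267), and Nat10, the acetyltransferase of small subunit RNA, by 0.54 ± 0.10 (adjusted p = 0.0135). Pwp2, a processome scaffold, fell by 0.53 ± 0.12 (adjusted p = 0.0418). Of the large subunit factors Ppan fell by 0.51 ± 0.09 (adjusted p = 0.0135), the helicase Ddx51 by 0.49 ± 0.11, the rRNA methyltransferase Ftsj3 by 0.45 ± 0.11, Urb1 by 0.40 ± 0.10 and Sdad1 by 0.39 ± 0.09. Shq1, an assembly chaperone of Dkc1, fell by 0.42 ± 0.10 (adjusted p = 0.0446). Each of these 9 calls was lost without N1ICD replicate 2 and without control replicate 2, and those but Nat10 and Ppan without further arrays too (adjusted p up to 0.172).

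The metabolic neighbors of Srm, Cad and Hspd1 gave 1 call. Of 12 other polyamine genes 1 fell and 0 rose, against 3.27% and 3.82% of all genes. At an unadjusted p under 0.05, 2 were lower and 0 higher, against 11.2% and 8.67% of all genes. With 12 genes these counts lie near those shares. The mean was lower in N1ICD for 6 and higher for 6, and the median was -0.00. The gene that fell was Arg2, a mitochondrial arginase that makes ornithine (-0.73 ± 0.16, adjusted p = 0.03). Its call was lost without every array but N1ICD replicate 3 (adjusted p up to 0.0958). Of 8 other pyrimidine genes 0 changed by limma, with 2 lower and 0 higher at an unadjusted p under 0.05 (11.2% of all genes were lower). Umps, which completes the pathway that Cad starts, had -0.48 ± 0.13 (adjusted p = 0.0697). Of 7 mitochondrial chaperone and protease genes 0 changed by limma, with 1 lower and 0 higher at an unadjusted p under 0.05, a share near that of all genes. Hspa9, a mitochondrial chaperone, had -0.28 ± 0.09 (adjusted p = 0.113).

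**Figure D4:**
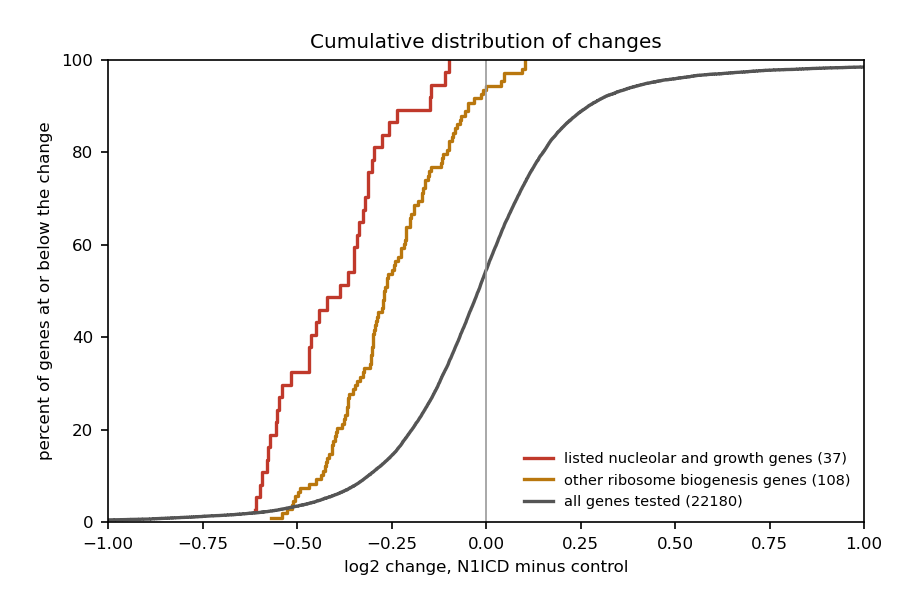
Cumulative share of genes (vertical axis, percent) by log2 change, N1ICD minus control (horizontal axis, shown from -1 to 1), for the 37 listed genes, the 108 other ribosome biogenesis genes and all 22180 genes. The medians are -0.39, -0.27 and -0.02, and 37 of 37, 102 of 108 and 54.5% lie below 0.

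Of the MYC family, known regulators of these genes, Mycl had 10.34, 10.09 and 10.33 in the N1ICD arrays, against 11.04, 11.34 and 11.04 in the control arrays (-0.89 ± 0.12, adjusted p = 0.00418). Mycn had 5.94, 5.60 and 5.91 in the N1ICD arrays, against 6.29, 6.44 and 6.30 in the control arrays (-0.52 ± 0.12, adjusted p = 0.0381), a call lost whichever array was left out (adjusted p 0.0528 to 0.135). Its signal was low: the N1ICD values lay below every array median over all genes (6.14 to 6.24) and the control values close above. Myc (0.10 ± 0.10, adjusted p = 0.644) and their partner Max (0.07 ± 0.13, adjusted p = 0.835) did not pass the test. Whether these levels have a part in those of the listed genes was not tested.

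MYC proteins bind with Max to the E-box CACGTG, and RBPJ, the DNA partner of the Notch intracellular domain, to sites with the core TGGGAA. Promoter windows of 300 bases (250 before to 50 after the annotated start, RefSeq, GRCm38.p6) were given for 33 of the 39 genes, 39 windows in all. No window was given for Fbl, Npm1, Rrs1, Rrp12, Bop1 and Srm, so these were not searched. Of them Rrp12, Bop1 and Srm fell. CACGTG, which reads the same on both strands, was in 7 of the 39 windows (17.9%). It was in 7.15% of all 32851 windows given, whether or not their gene was tested, and in 8.07% of the 20611 windows of tested genes. The 39 windows held 60.6% G and C on average, against 53.8% in all windows and 56.4% in those of tested genes. The genes with CACGTG were Mybbp1a, Nop2, Utp20 and Wdr43, which fell, Hspd1 and Pes1, which did not pass the test, and Sms, which was not analysed. TGGGAA on either strand was in 9 windows (23.1%), against 25.6% of all windows and 24.4% of those of tested genes. A match is a string of letters and no measured binding, and CACGTG outside the window was not looked for. The 4 windows with CACGTG of genes that fell are shown with that motif in capitals, and that of Polr1a, the gene with the lowest adjusted p, is shown as a window without it.
Nop2 (chr6:125131633-125131932, + strand): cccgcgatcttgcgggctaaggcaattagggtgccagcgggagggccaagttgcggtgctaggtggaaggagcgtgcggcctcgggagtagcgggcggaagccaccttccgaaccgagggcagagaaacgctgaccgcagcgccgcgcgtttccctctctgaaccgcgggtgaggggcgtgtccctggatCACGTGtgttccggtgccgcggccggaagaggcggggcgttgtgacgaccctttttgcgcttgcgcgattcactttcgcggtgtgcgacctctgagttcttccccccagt
Utp20 (chr10:88826765-88827064, - strand): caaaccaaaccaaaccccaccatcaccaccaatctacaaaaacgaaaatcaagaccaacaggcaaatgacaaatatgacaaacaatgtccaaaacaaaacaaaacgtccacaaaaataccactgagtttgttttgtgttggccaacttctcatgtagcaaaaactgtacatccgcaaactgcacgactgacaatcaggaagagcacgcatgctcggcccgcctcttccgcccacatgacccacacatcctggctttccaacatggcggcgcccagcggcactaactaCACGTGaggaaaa
Mybbp1a (chr11:72441077-72441376, + strand): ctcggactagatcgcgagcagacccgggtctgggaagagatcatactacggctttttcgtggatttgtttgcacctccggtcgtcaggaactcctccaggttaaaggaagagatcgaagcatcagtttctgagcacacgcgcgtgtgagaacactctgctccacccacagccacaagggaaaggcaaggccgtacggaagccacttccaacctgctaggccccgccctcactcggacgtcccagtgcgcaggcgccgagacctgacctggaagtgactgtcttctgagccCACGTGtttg
Wdr43 (chr17:71615965-71616264, + strand): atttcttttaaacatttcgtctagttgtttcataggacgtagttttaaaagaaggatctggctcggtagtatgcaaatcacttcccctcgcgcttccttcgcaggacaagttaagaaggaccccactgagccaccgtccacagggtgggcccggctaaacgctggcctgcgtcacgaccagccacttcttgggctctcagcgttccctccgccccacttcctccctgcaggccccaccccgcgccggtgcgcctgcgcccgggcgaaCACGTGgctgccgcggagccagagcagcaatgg
Polr1a (chr6:71908803-71909102, + strand): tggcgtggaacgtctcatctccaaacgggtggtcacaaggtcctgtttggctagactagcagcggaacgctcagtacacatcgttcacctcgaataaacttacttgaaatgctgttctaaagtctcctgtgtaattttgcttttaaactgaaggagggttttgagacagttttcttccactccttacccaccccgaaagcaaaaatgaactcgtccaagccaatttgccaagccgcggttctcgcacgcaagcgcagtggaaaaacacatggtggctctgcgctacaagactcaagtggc
Counted from the annotated start, the first base of CACGTG lay at -60 in Nop2 and at 37, 40 and 17 in Utp20, Mybbp1a and Wdr43, so in the last 3 it lay past the start. Nop2, Utp20, Mybbp1a and Wdr43 fell by 0.46, 0.61, 0.39 and 0.47, and Polr1a by 0.59.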

How the data were processed

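The 6 samples of sorted KP1 cells were hybridised to Affymetrix Mouse Gene 2.0 ST arrays as total RNA. The deposited values are log2 expression made by the authors with RMA, which subtracts background, equalizes the distributions of the arrays and summarizes probe sets, per the submitters' processing notes. No version of it is stated there. The base of the logarithm and the genome build are not given in the sources used here, and base 2 was taken. RMA compresses changes of dim probe sets and hides a change of total RNA per cell. Precision is limited by the number of arrays.

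Of 41345 probe sets 23521 carry 1 gene symbol in the platform annotation, 1814 several and 16010 none listed. A gene was read from its brightest single-symbol probe set, which gave 22180 genes, with no filter on dim genes. Polr1f, Polr1g and Polr1h were matched through their older symbols. N1ICD minus control was tested with lmFit and eBayes of limma 3.58.1 under R 4.3.3, with two-sided p-values adjusted by Benjamini-Hochberg across the whole table and called under 0.05. A ± after a change is its SE, and a ± after a group mean the SD of 3 arrays. The fit was tested on simulated data. Figures were drawn with matplotlib 3.10.9.

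The 39 genes and the other lists were chosen with earlier results of these data known. Named were all 39 genes, Notch1, 5 Notch targets, 4 MYC family genes and, of each other list, up to 3 called genes per direction by size, all where 5 or fewer were called, or the gene with the largest change where none was. Alternatives were quantile normalization once more, equal array medians, 2 filters on dim genes, the mean over probe sets, an intensity trend with robust eBayes, array weights, a stricter threshold of 0.01, a block for the replicate number, each array left out and, added after seeing the data, a fit over all probe sets. Replicate numbers come from the labels.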

Additional observations from a re-analysis of the deposited data

How the results depend on the processing

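The median change of the 37 genes kept its direction under every alternative run, between -0.44 and -0.36, and that of the 108 other ribosome biogenesis genes between -0.30 and -0.21. Of the 37 genes 28 fell when only the 11090 genes above the median level were tested, 27 with an intensity trend and robust eBayes, 14 with equal array medians, 4 with all 41345 probe sets in the fit and 2 at an adjusted p under 0.01, against 18 as reported; with 1 array left out 4 to 14 fell, and in no fit did 1 rise. Of the 108 genes 38 fell with that filter, against 11.6% of the genes tested. With the filter at the 25th percentile 23 fell, against 6.33% of the 16635 genes tested. With the intensity trend 36 fell, against 5.53% of all genes, and with equal array medians 7, against 2.97%. With all probe sets in the fit and at an adjusted p under 0.01, 0 fell, against 1.02% and 0.938% of all genes. For 108 genes a count of 0 lies near those shares. As reported 12 fell, and with 1 array left out 0 to 12. Over all genes 1289 fell with the filter at the median, 1227 with the intensity trend, 226 with all probe sets in the fit and 208 at an adjusted p under 0.01, against 726, and 480 rose with all probe sets and 460 at the stricter threshold, against 848; with 1 array left out 275 to 585 fell and 548 to 709 rose. Other numbers of genes tested or fewer arrays account by construction for part of these counts, and further causes were not tested. The change of Max, 0.07 with all arrays, lay between -0.05 (without control replicate 1) and 0.15 with 1 array left out. With the replicate number as a block, 13 of the 37 and 6 of the 108 genes fell, against 704 of all genes (3.17%). The labels give no shared batch or day, so the numbers were not taken as pairs in the main fit. Deviations of same-numbered arrays from their group means correlated at 0.232, 0.008 and 0.201 for replicates 1, 2 and 3. For an N1ICD and a control array of different numbers the correlation lay between -0.235 and 0.058. Whether the numbers mark pairs was not tested.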
